A study of Homo sapiens with 9 samples.

Results

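The 10 genes TDO2, IDO1, AFMID, KYNU, KMO, HAAO, AADAT, AHR, CYP1A1 and CYP1B1 were followed through the RNA-seq of hepatocellular carcinoma (HCC) cells that overexpress the homeobox gene EMX1. They are 10 of the 60642 gene names counted, and were found by name in the tables of counts and of TPM (transcripts per 1000000, a scale that allows for gene length). The list was chosen from TDO2, which had been picked for its higher level in EMX1-FL cells, with the enzymes that act after it and the receptor of its product added. The difference of TDO2 between EMX1-FL and the vector control is therefore a description and has no test, nor have its other comparisons, which share libraries with that one. The cells were SNU-398, an established mesenchymal-like HCC line, in 3 groups of 3 libraries, and RNA was measured in bulk. The vector control cells carried the control vector, the EMX1-FL cells carried the full-length EMX1 and the EMX1-X1 cells its splice isoform. All 3 groups were lentivirally transduced, kept under puromycin to select stable cells, and grown in RPMI1640 with fetal bovine serum. The labels do not say whether libraries of a group came from separate cultures, so p-values measure the spread between these libraries, which may be technical.

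Tryptophan dioxygenase, the TDO2 protein, is the enzyme by which hepatocytes open the indole ring of tryptophan, and IDO1 does the same in many other cell types, mostly after interferon-gamma. The product is hydrolysed to kynurenine by the formamidase AFMID. Kynurenine is then hydroxylated by KMO, cleaved by KYNU or transaminated to kynurenic acid by AADAT, and HAAO makes the precursor of quinolinic acid, from which NAD can be built. Kynurenine and kynurenic acid are ligands of the aryl hydrocarbon receptor AHR, a transcription factor that binds with its partner ARNT and switches on CYP1A1 and CYP1B1, monooxygenases of xenobiotic and estrogen metabolism.

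The promoters of TDO2, AHR and CYP1A1 are shown because TDO2 is the gene the list was built on, AHR is the member that passed the threshold used below, and CYP1A1 is the classical AHR target. Each run is the 250 bases before the RefSeq start of the gene, on the strand of the gene, from assembly GRCh38.p14. Capitals mark TATAAA, the core of the TATA box, or GCGTG, the core of the xenobiotic response element bound by AHR and ARNT. The TDO2 window is chr4:155903446-155903695 on the plus strand, that of AHR chr7:17298402-17298651 on the plus strand, and that of CYP1A1 chr15:74725529-74725778 on the minus strand.
TDO2: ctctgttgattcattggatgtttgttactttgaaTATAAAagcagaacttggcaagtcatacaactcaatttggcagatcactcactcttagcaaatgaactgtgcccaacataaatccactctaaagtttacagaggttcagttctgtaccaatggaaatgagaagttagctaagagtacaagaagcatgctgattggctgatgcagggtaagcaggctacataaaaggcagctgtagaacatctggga
AHR: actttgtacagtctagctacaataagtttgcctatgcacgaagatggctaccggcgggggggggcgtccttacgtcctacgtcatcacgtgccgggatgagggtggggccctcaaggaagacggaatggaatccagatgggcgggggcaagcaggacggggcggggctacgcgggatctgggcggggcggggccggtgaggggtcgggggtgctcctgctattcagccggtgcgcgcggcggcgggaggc
CYP1A1: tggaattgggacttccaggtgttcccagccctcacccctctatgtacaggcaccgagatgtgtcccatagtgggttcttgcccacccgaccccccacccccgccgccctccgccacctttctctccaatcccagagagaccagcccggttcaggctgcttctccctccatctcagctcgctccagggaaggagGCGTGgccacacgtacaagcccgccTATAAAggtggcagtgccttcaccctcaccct
Counted to the first base of the match, with the base before the start as -1, the CYP1A1 window held GCGTG at -57 and TATAAA at -32, and the TDO2 window held TATAAA at -216. Searched on both strands, GCGTG was in 32.2% and TATAAA in 10.7% of the 35116 windows of this length. The letters TAATTA, a core to which many homeodomains bind, were in 4.35% of the windows and in none of these 3. The GC content was 40% for TDO2, 66.8% for AHR and 62.4% for CYP1A1, against a median of 58% over all windows. A match or its absence describes the letters of the window. Of the 10 members, 8 had a window in the table. CYP1B1 had none, and IDO1 was not examined here.

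Each library held from 21562703 to 25197970 counted read pairs. EMX1 itself had 218, 229 and 313 counts in the control libraries, from 3145 to 5660 with EMX1-FL and from 3479 to 7133 with EMX1-X1, so its gene name was high where the labels say that it was overexpressed. The count does not part the isoforms. The libraries also split across the groups along the first principal component, with 39.6% of the variance. On one side were 5 libraries, EMX1-X1 1, EMX1-FL 2 and 3 and the first pair of controls, and these are called cluster A. Cluster B is the other 4, EMX1-X1 2 and 3, EMX1-FL 1 and control 3, and both were defined from the counts. EMX1 itself was higher in cluster B, by 0.78 on the log2 scale in a fit with the cluster as a term. It had 3479 counts in EMX1-X1 1 against 7083 and 7133 in EMX1-X1 2 and 3. In EMX1-FL 1 it had 5660 against 3202 and 3145 in EMX1-FL 2 and 3. Of 12 hepatocyte markers, 10 stayed under 10 counts in every library and AFP, TTR and KRT18 were at 0 in all 9, while the 6 mesenchymal markers summed to between 1030 and 1400 TPM. The 5 endothelial markers summed to 0.412 TPM at most and the 6 leukocyte markers to 0.573 TPM at most. Of 18574 genes tested, 6 were members, namely TDO2, AFMID, AADAT, AHR, CYP1A1 and CYP1B1. The other 4, IDO1, KYNU, KMO and HAAO, had too few counts to pass the filter.

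The cells held the beginning of the pathway and the transaminase branch, but hardly any transcript for the branch towards quinolinic acid. In the control libraries AFMID was at 24.8 ± 3.35 TPM (SD, n = 3) and AADAT at 23.3 ± 4.43 TPM, and the ranges of these neighbours overlapped. CYP1A1 followed at 10.2 ± 0.107 TPM, CYP1B1 at 9.10 ± 1.99 TPM and TDO2 at 7.37 ± 1.40 TPM. CYP1B1 overlapped with both CYP1A1 and TDO2, whereas TDO2, at 8.37 TPM or less, lay below CYP1A1 in each control library. AHR, the receptor, was far below them at 0.466 ± 0.0613 TPM. In the EMX1-FL libraries TDO2 was at 27.4 ± 2.71 TPM, beside AADAT at 33.9 ± 4.16 TPM and AFMID at 26.0 ± 7.07 TPM, and overlapped with both. In the EMX1-X1 libraries it was at 15.9 ± 5.42 TPM, with AFMID at 26.6 ± 0.674 TPM above all its libraries and CYP1A1 at 11.6 ± 2.17 TPM overlapping it.

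**Figure D1:**
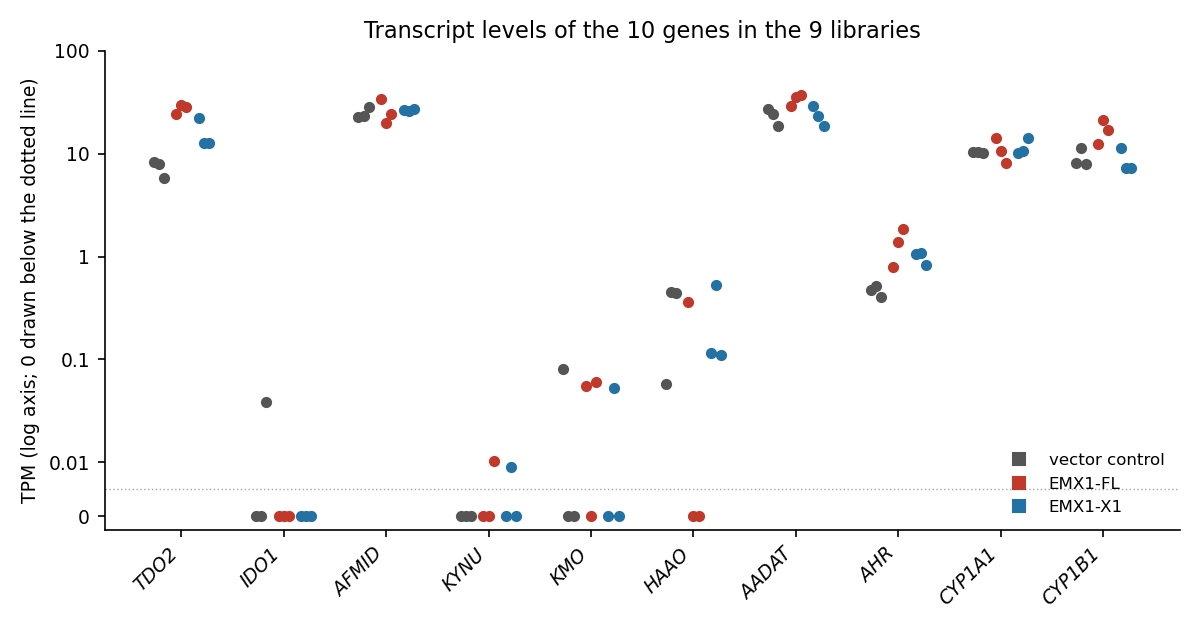
TPM of the 10 genes, on a log axis, with 1 point per library coloured by group and values of 0 drawn below the dotted line. TDO2, AFMID, AADAT, CYP1A1 and CYP1B1 lie between 5.77 and 37.1 TPM in all 9 libraries, AHR between 0.401 and 1.85 TPM, and IDO1, KYNU and KMO never above 0.0802 TPM.

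TDO2, the tryptophan dioxygenase, was lowest in the control and highest in the EMX1-FL libraries. The gene lies at chr4:155854738-155920406 on the plus strand (GRCh38), and none of its 5264 exon bases overlaps another gene. It had 277, 269 and 226 counts in controls 1 to 3, 790, 999 and 825 in the EMX1-FL libraries, and 742, 424 and 447 in the EMX1-X1 libraries, in replicate order. The 3 groups did not overlap, and the EMX1-X1 libraries were uneven, with the library of cluster A well above the other two. In CPM, counts per 1000000 counted pairs scaled by TMM factors, the means were 11 ± 1.44 in the control, 38.4 ± 3.53 in EMX1-FL and 22.2 ± 7.53 in EMX1-X1 (SD, n = 3 each). The fitted log2 fold change was 1.81 (SE 0.24) for EMX1-FL and 1.02 (SE 0.24) for EMX1-X1 against the control, and 0.79 (SE 0.23) between EMX1-FL and EMX1-X1. EMX1-X1 1 set much of the latter values, as without it EMX1-X1 differed from the control by 0.70 and EMX1-FL from EMX1-X1 by 1.11.

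TDO2 was also lower in cluster B, by 0.45 on the log2 scale in a fit with the cluster as a term. EMX1-FL exceeded the control by 1.76 on this scale in cluster A and by 1.90 in cluster B. EMX1-X1 did so by 1.38 in cluster A and by 0.93 in cluster B. EMX1-FL stood above EMX1-X1 by 0.37 in cluster A and by 0.97 in cluster B. As the 3 groups did not overlap, their order within each cluster was given beforehand. The gap between the isoforms was smaller in cluster A, where EMX1-X1 has 1 library. In cluster B the control and EMX1-FL have 1 library each. With the cluster as a term the 3 log2 fold changes were 1.82, 1.13 and 0.68.

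IDO1, the interferon-inducible dioxygenase, had a single count, in vector control 3, and 0 in the other 8 libraries. Its relative IDO2 was at 0 in all 9. A library with 0 counts allows up to 3 counts, or between 0.121 and 0.139 CPM, counting error only. TDO2 was thus the dioxygenase gene of this step with a measurable level in every library.

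AFMID, the formamidase that frees kynurenine, lay at chr17:78187317-78207701 and shared no exon base with another gene. It had 579, 597 and 863 counts in the control, 839, 513 and 552 in EMX1-FL and 679, 669 and 740 in EMX1-X1. The groups overlapped, and the highest control and EMX1-FL libraries were those of cluster B. The log2 fold changes, -0.035 (SE 0.23) for EMX1-FL and -0.008 (SE 0.23) for EMX1-X1 against the control, did not pass the test (edgeR quasi-likelihood test, adjusted p = 0.997 and 0.995) and changed sign with other settings, by scaling to library size alone in the latter.

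KMO, the hydroxylase, had at most 3 counts in a library and 9 over all 9. Of the KMO exon bases 28.4% overlap OPN3, and read pairs there were not counted. KYNU, the kynureninase, had 1 count in EMX1-FL 3 and 1 in EMX1-X1 2. HAAO had 18 counts over the control libraries, 6 over the EMX1-FL and 13 over the EMX1-X1 libraries, with up to 9 in one. No difference in these genes was detectable at this depth, and no fold is given.

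AADAT, a transaminase that makes kynurenic acid, was at the level of AFMID and lies at chr4:170060222-170091699 on the minus strand. It had 510, 460 and 410 counts in the control, 533, 671 and 615 in EMX1-FL and 545, 432 and 364 in EMX1-X1. In CPM the EMX1-FL libraries, between 23.6 and 28.4, lay above those of the control, at most 21.8, and of EMX1-X1, at most 22.7. The log2 fold change of EMX1-FL was 0.45 (SE 0.20) against the control, with an adjusted p of 0.86, and 0.54 (SE 0.20) against EMX1-X1, with an adjusted p of 0.611, in edgeR's quasi-likelihood test. Both had a p under 0.05 before adjustment but were under the fold change threshold of 1, and the EMX1-X1 libraries overlapped with the control at -0.09 (SE 0.20, adjusted p = 0.903 by edgeR). AADAT too was lower in cluster B, by 0.35. Within the clusters EMX1-FL exceeded the control by 0.44 (A) and 0.48 (B), and EMX1-FL exceeded EMX1-X1 by 0.32 (A) and 0.54 (B). As EMX1-FL did not overlap with either group, these directions were given beforehand.

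**Figure D2:**
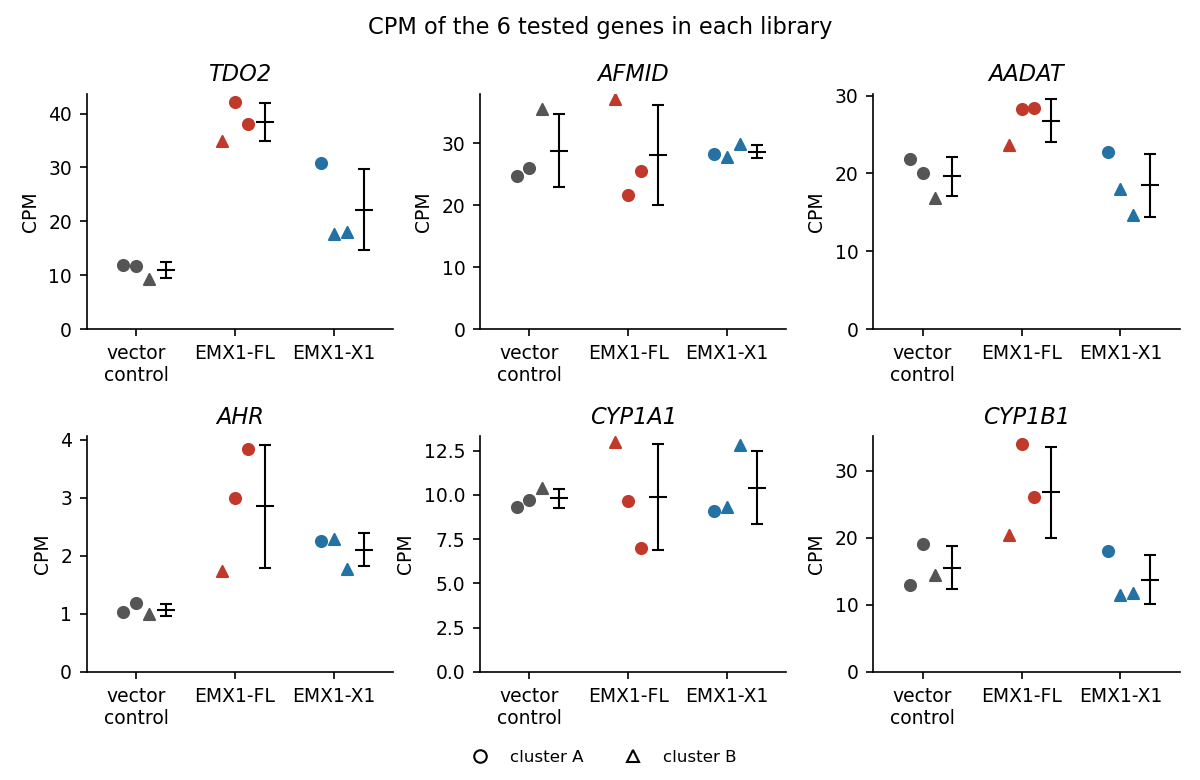
CPM of the 6 tested members in each library, from an axis that starts at 0, with circles for cluster A, triangles for cluster B and the mean ± SD of 3 libraries beside the points. TDO2 is at 35 CPM or more in the EMX1-FL libraries and below 12 CPM in the control, while the AFMID and CYP1A1 groups overlap.

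AHR, the receptor of kynurenine, was higher in both overexpression groups, from a low level. It had 24, 27 and 24 counts in the control, 39, 71 and 83 in EMX1-FL and 54, 55 and 44 in EMX1-X1. Both overexpression groups lay above the control in every library and overlapped with each other. The log2 fold change of EMX1-FL against the control was 1.42 (SE 0.34), with an adjusted p of 0.216 in edgeR's quasi-likelihood test, so AHR passed the threshold on the unadjusted p but not that on the adjusted one. For EMX1-X1 it was 0.98 (SE 0.34), with an adjusted p of 0.548 by edgeR, just under the fold change threshold. Without vector control 2 it was 1.04 and without EMX1-X1 3 it was 1.09, both past that threshold. The overexpression groups differed by 0.44 (SE 0.33, adjusted p = 0.631 by edgeR).

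EMX1-FL exceeded the control in AHR by 1.55 (log2) in cluster A and by 0.76 in cluster B, where each has 1 library. EMX1-X1 did so by 0.98 in cluster A and by 0.97 in cluster B. As neither group overlapped with the control, the directions within the clusters were given beforehand. With the cluster as a term the log2 fold change of EMX1-FL was 1.38 with an adjusted p of 0.0454 by edgeR. The cluster was defined from the same counts, so that adjusted p may be too small. DESeq2 gave an adjusted p of 0.0282, and the range over all alternatives was from 0.0282 to 0.731. Of the exon bases counted under AHR, at chr7:16916359-17346152, 35.2% overlap the genes AC019117.4 and AC073332.1, and read pairs there were not counted.

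CYP1A1, a widely used read-out of AHR activity, showed no difference beyond the spread between libraries. It had 218, 222 and 253 counts in the control, 292, 229 and 152 in EMX1-FL and 219, 224 and 317 in EMX1-X1, and the groups overlapped. The log2 fold changes were 0.009 (SE 0.24) for EMX1-FL and 0.085 (SE 0.24) for EMX1-X1 against the control, with adjusted p = 1.0 and 0.922 by edgeR, and the sign of the former turned with DESeq2's scaling. CYP1A1 was higher in cluster B, by 0.35, where AHR was lower by 0.44. EMX1-FL differed from the control in CYP1A1 by -0.21 in cluster A and by 0.31 in cluster B.

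CYP1B1, the other classical target, was higher in EMX1-FL cells than in the other groups. It had 303, 438 and 350 counts in the control, 461, 805 and 566 in EMX1-FL and 433, 277 and 291 in EMX1-X1. The EMX1-FL libraries lay above all others, the lowest at 20.4 CPM and the highest of the rest at 19.1 CPM. The log2 fold change was 0.79 (SE 0.26) against the control, with an adjusted p of 0.536 in edgeR's test, and 0.96 (SE 0.26) against EMX1-X1, with an adjusted p of 0.611 by edgeR. Both passed by p before adjustment and were under the fold change threshold, and without EMX1-FL 1 or EMX1-X1 1 the latter was 1.13 and 1.21. With the cluster as a term the log2 fold change against the control was 0.77 with an adjusted p of 0.0403 by edgeR, within a range over the alternatives from 0.0403 to 1.0. The value of 0.0403 may be too small, as the cluster was defined from the same counts. EMX1-X1 and the control differed by -0.17 (SE 0.26, adjusted p = 0.851 by edgeR). CYP1B1 was lower in cluster B by 0.45. Within the clusters EMX1-FL exceeded the control by 0.92 (A) and 0.50 (B), and EMX1-FL exceeded EMX1-X1 by 0.72 (A) and 0.81 (B). These directions were given beforehand, as the EMX1-FL libraries lay above all others. Of its exon bases, at chr2:38066973-38109902, 13.1% overlap CYP1B1-AS1, RMDN2 or RMDN2-AS1.

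**Figure D3:**
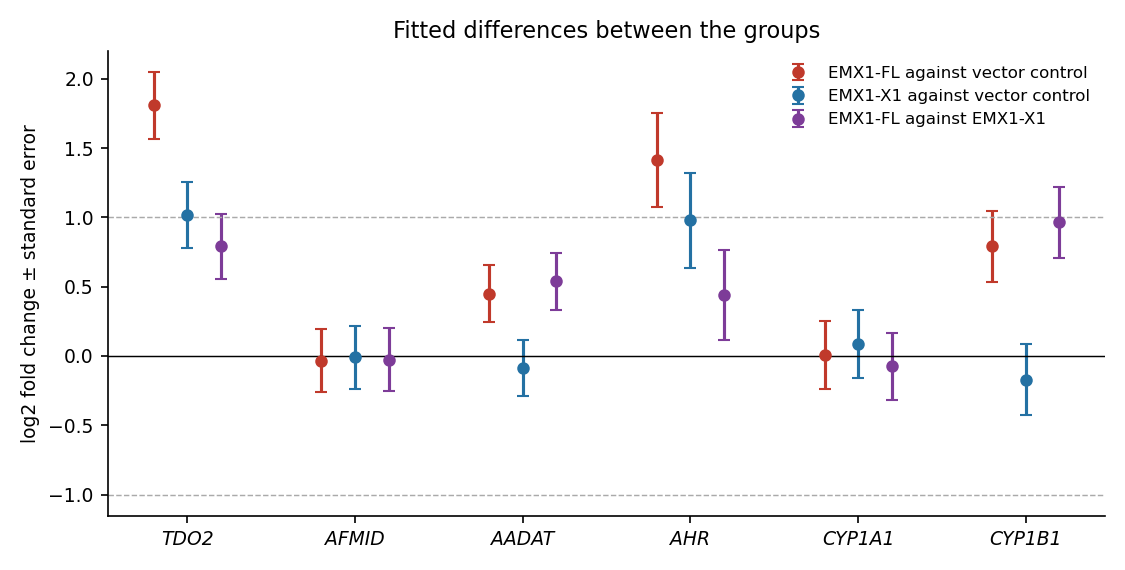
Log2 fold change ± standard error of the 6 tested members in the 3 comparisons, with dashed lines at the threshold of 1. TDO2 (1.81) and AHR (1.42) exceed the line for EMX1-FL against the control, and AFMID and CYP1A1 lie within 0.085 of 0 in each comparison.

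Against the background of all genes, 1 of the 5 tested members other than TDO2 was called in EMX1-FL against the control, that is, with a fold of 2 or more in either direction and p under 0.05 before adjustment, where 2.42% of the genes tested were called. It was AHR. None was called in EMX1-X1 against the control, where 2.5% of genes were, nor in EMX1-FL against EMX1-X1, where 1.42% were. By p alone 3 of the 5 passed in EMX1-FL against the control (AADAT, AHR and CYP1B1; 5.8% of all genes), 1 in EMX1-X1 against the control (AHR; 8.11%) and 2 between the isoforms (AADAT and CYP1B1; 7.63%). The same members had EMX1-FL or EMX1-X1 libraries wholly above those of the other group, which held for 5.36%, 8.03% and 3.89% of all genes in that direction. None of the 5 tested members other than TDO2, which has no test, passed an adjusted p under 0.05 with the fold change in edgeR's test. Over all genes 13, 1 and 0 did so. With the cluster, defined from the same counts, as a term AHR passed in EMX1-FL against the control. AHR also passed there with DESeq2, and with edgeR without EMX1-FL 1 (log2 fold change 1.68, adjusted p = 0.0336). Without that library CYP1B1 passed between the isoforms (1.13, adjusted p = 0.0443 by edgeR).

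The rest of the pathway was read from 10 lists of 90 other genes in the table, of which 54 were tested. In EMX1-FL against the control 3 of the 54 were called higher and 0 lower, where 2.42% of all genes were called, 379 higher and 71 lower. Among the 3 is KYAT1, which passed the filter on low counts through its EMX1-FL libraries. In EMX1-X1 against the control 0 of the 54 were called by edgeR, beside 2.5% of all genes. In EMX1-FL against EMX1-X1 1 was called higher and 1 lower, beside 1.42%. By p alone 6, 3 and 3 of the 54 passed, beside 5.8%, 8.11% and 7.63% of all genes. The median log2 fold change of the 54 was 0.052, -0.025 and 0.042, beside 0.045, 0.010 and 0.021 over all genes tested.

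Of the genes for tryptophan uptake, 5 of 7 were tested and SLC7A8, an exchanger of large neutral amino acids, was the one called. It had 143, 158 and 194 counts in the control, 464, 250 and 287 in EMX1-FL and 245, 315 and 316 in EMX1-X1, so that both overexpression groups lay above the control. The log2 fold change of EMX1-FL was 1.08 (SE 0.26) with an adjusted p of 0.216 by edgeR. Without vector control 1 it was 0.99 and without EMX1-FL 1 it was 0.76, both short of the threshold. The adjusted p was 0.0208 with DESeq2 and 0.0232 by edgeR without the filter on low counts. With the cluster as a term it was 0.00673 by edgeR, which may be too small, as the cluster was defined from the same counts. The range over the alternatives was from 0.00673 to 0.808. EMX1-X1 gave 0.78 (SE 0.26, adjusted p = 0.536 by edgeR). SLC7A8 was higher in cluster B, by 0.49, unlike TDO2. SLC3A2, the heavy chain that carries the main transporter of tryptophan to the membrane, had the highest level of the list, between 371 and 597 TPM, and did not pass the test in any comparison.

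Of the other kynurenine and quinolinate enzymes, 4 of 7 were tested. KYAT3 and GOT2, transaminases that also act on kynurenine and lie outside the naming rule, averaged 133 and 103 TPM over the 9 libraries. AADAT averaged 26.9 TPM. Neither KYAT3 nor GOT2 was called in any comparison. KYAT1, another kynurenine transaminase, was called in EMX1-FL against the control on few counts, 0, 8 and 4 in the control, 12, 16 and 15 in EMX1-FL and 11, 17 and 5 in EMX1-X1. KYAT1 passed the filter on low counts through its EMX1-FL libraries, as most of the others were too low, so its call is a description. Its log2 fold change of 1.86 (SE 0.80, adjusted p = 0.832 by edgeR) lost the call without vector control 1 (1.29), vector control 3 (1.83), EMX1-FL 2 (1.79) or EMX1-FL 3 (1.79), and 57.3% of its exon bases overlap AL441992.3. EMX1-X1 gave 1.39 (SE 0.81, adjusted p = 0.655 by edgeR) against the control, and 2.36, past the threshold, without vector control 2. QPRT, which turns quinolinic acid into an NAD precursor, stood at 236 to 388 TPM in all 9 libraries although the enzymes before it were near 0. It did not pass the test (0.10, SE 0.22, and 0.22, SE 0.22, against the control). In NAD synthesis and salvage 8 of 10 were tested and 0 called in any comparison, with 1 by p alone in EMX1-FL against the control and 0 in the others, and NADK, the NAD kinase, was the highest at 62.2 TPM on average.

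Tryptophan can also go to serotonin and tryptamine, a branch of which 2 of 8 genes were tested. MAOA, the monoamine oxidase, had 6, 11 and 2 counts in the control, 27, 18 and 32 in EMX1-FL and 8, 13 and 11 in EMX1-X1. The EMX1-FL libraries lay above all others, and the log2 fold change was 2.05 (SE 0.59, adjusted p = 0.361 by edgeR) against the control and 1.37 (SE 0.55, adjusted p = 0.611 by edgeR) against EMX1-X1. The latter missed the threshold when EMX1-FL 1, EMX1-FL 3, EMX1-X1 1 or EMX1-X1 3 was left out, at 1.33, 1.14, 1.21 and 1.38. AANAT, the acetyltransferase before melatonin, was the highest of the branch at 2.65 TPM. TPH1 and TPH2, which open the branch, were not tested and had 48 and 3 counts over all libraries. The tryptophanyl-tRNA synthetase WARS1 was at 443 TPM, with a log2 fold change of -0.35 (SE 0.15, adjusted p = 0.816 by edgeR) in EMX1-FL against the control. Neither WARS1 nor its mitochondrial relative WARS2 was called.

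All 7 AHR partners and chaperones were tested and none was called in any comparison, with 0, 1 and 1 by p alone. HSP90AB1, the chaperone of the receptor in the cytosol, was at 1660 TPM. Of 11 other AHR targets only 3 were tested, TIPARP, NFE2L2 and STC2, and none was called. STC2 was the highest at 76.5 to 160 TPM, with a log2 fold change of 0.13 (SE 0.27) in EMX1-FL against the control. TIPARP, which lies outside the naming rule and was picked after its values were seen, gave 0.58 (SE 0.21, adjusted p = 0.642 by edgeR) in EMX1-FL and 0.17 (SE 0.20, adjusted p = 0.813 by edgeR) in EMX1-X1 against the control. By p alone the 3 targets gave 1, 0 and 0 in the 3 comparisons.

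TDO2 is a liver enzyme under glucocorticoid control, and genes of both kinds were examined. Of 15 liver genes of amino acid catabolism 8 were tested and none called, with 0 by p alone in each comparison. GLDC, of the glycine cleavage system, was the highest at 37.9 TPM. Of 10 genes of the glucocorticoid receptor and its targets 7 were tested. None was called against the control, and DUSP1, a phosphatase gene, was the highest at 47.0 TPM. PER1, a clock gene, was called between the isoforms, at -1.05 (SE 0.29, adjusted p = 0.611 by edgeR) for EMX1-FL against EMX1-X1. It had 1429, 922 and 1046 counts in the control, 1076, 671 and 1015 in EMX1-FL and 1250, 2416 and 2544 in EMX1-X1, so the EMX1-X1 libraries of cluster B carried it. The value fell short of the threshold with the cluster as a term (-0.91) and without EMX1-FL 2 (-0.85), EMX1-X1 2 (-0.92) or EMX1-X1 3 (-0.90). Without the filter on low counts it was -1.06 with an adjusted p of 0.00443, and without EMX1-FL 1 it was -1.18 with 0.0458, within a range over the alternatives from 0.00443 to 0.991. EMX1-X1 exceeded the control by 0.82 (SE 0.29, adjusted p = 0.559 by edgeR), and by 1.03 without vector control 1 and 1.08 without EMX1-X1 1, both past the threshold. Of 13 interferon-gamma response genes 8 were tested and none passed in any comparison, by p alone either, and IFNGR1, a receptor chain, was the highest at 95.0 TPM.

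The genes most like TDO2 over the 9 libraries, by Pearson's r of log2 CPM, were COL12A1 (r = 0.986), GREM1 (0.982), SNAI2 (0.981), HMCN1 (0.978) and C12orf75 (0.976). COL12A1 is a collagen of fibrillar matrix, GREM1 an antagonist of bone morphogenetic proteins, SNAI2 a transcription factor of epithelial-mesenchymal transition and HMCN1 a matrix protein. The 9 points share their groups and clusters, so r is a description. SNAI2 had 85, 73 and 64 counts in the control, 273, 307 and 289 in EMX1-FL and 219, 169 and 164 in EMX1-X1, the order of the groups and the high EMX1-X1 1 being those of TDO2. COL12A1 was at 74.1 ± 4.82 CPM in the control, 157 ± 6.03 in EMX1-FL and 121 ± 20.8 in EMX1-X1 (SD, n = 3 each). Among the members r with TDO2 was 0.867 for AHR, 0.720 for AADAT, 0.709 for CYP1B1, -0.166 for CYP1A1 and -0.225 for AFMID. Ranked by r from the highest among the genes tested, these members stood at 139, 515, 568, 12142 and 13018. Many genes outside the list thus followed TDO2 more closely than AHR, AADAT and CYP1B1 did.

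Other markers moved with the groups beside TDO2. Of the 6 mesenchymal markers 2 were called in EMX1-FL against the control, SNAI2 (2.02, SE 0.22, adjusted p = 0.009 by edgeR) and ZEB1 (1.22, SE 0.53, adjusted p = 0.837 by edgeR), and 1, SNAI2, in EMX1-X1 against the control, where 2.42% and 2.5% of all genes were called. By p alone 4, 3 and 1 of the 6 passed in the 3 comparisons, beside 5.8%, 8.11% and 7.63% of all genes. SNAI2 is in each of these counts. It is also among the genes most like TDO2, which was chosen for its rise in EMX1-FL, so its calls are a description. The summed level of the 6 mesenchymal markers was 1030 to 1290 TPM in the control, 1230 to 1400 in EMX1-FL and 1160 to 1340 in EMX1-X1. Of the hepatocyte markers ALB, at 10 to 53 counts a library, was called in both, at 1.47 (SE 0.45) and 1.11 (SE 0.45), with adjusted p = 0.467 and 0.576 by edgeR, and the list summed to 15.5 to 22.4, 18.7 to 30.1 and 18.0 to 22.3 TPM. The part of these markers in the level of TDO2 was not tested. The 8 fibroblast and stellate cell markers, which this line expresses at a sum of 878 to 1320 TPM, and the 4 cholangiocyte markers, at 3.87 to 9.45 TPM, had 0 calls in edgeR, with 1, 2 and 2 and with 0, 0 and 0 by p alone in the 3 comparisons. In bulk RNA a larger share of cells with a gene cannot be told apart from more RNA per cell.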

How the data were processed

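The 9 RNA-seq libraries of SNU-398 cells, 3 per group by the sample labels were analysed. From STAR alignments of fastp-trimmed reads, the authors deposited, not normalized, the counts of pairs on each gene name. Per the file header featureCounts 2.0.1 was run on exons of Ensembl release 99 (GRCh38) without a strand option, while the submitters' processing notes give version 2.0.6 and the methods name RSEM. A pair that overlaps more than 1 gene is then not counted. The authors also deposited log2(TPM + 1) values, which the counts and gene lengths gave again to within 5.0e-06 and which were turned back to TPM. Gene positions come from the count table.

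The test was that of edgeR 4.0.16 in R 4.3.3 (filterByExpr, TMM factors, quasi-likelihood F test, all 9 libraries, group as the only term) with Benjamini-Hochberg adjustment over the 18574 genes tested in each comparison. The SE of a log2 fold change was derived from this test, as its size divided by the square root of the F statistic. CPM are per 1000000 pairs of TMM-scaled library size, and log2 CPM have a prior count of 2. The study's threshold, a p under 0.05 before adjustment with a log2 fold change of 1 or more in size, made a call, and calls by the adjusted p at the same cut were counted beside it. The model was tested on simulated data. The named genes were the members, EMX1, in each list the called genes and the gene with the highest mean TPM, and the 5 genes most correlated with TDO2. The members and lists were chosen with earlier results of these data known. Alternatives were RLE, upper-quartile and library-size scaling, limma 3.58.1 on TPM logged with a pseudocount of 1 or 0.1, DESeq2 1.42.0, other filters, the 6 libraries compared alone, the replicate number or the cluster as a term, and each library left out. Plots were drawn with matplotlib 3.10.9 and tables made with pandas 2.3.3 under Python 3.11.15.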

Additional observations from a re-analysis of the deposited data

How the results depend on the processing

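TDO2 kept its direction in all 20 alternatives of each comparison, as it had to with a library left out, since its groups do not overlap. Its log2 fold change was 1.69 to 1.90 for EMX1-FL against the control, 0.70 to 1.16 for EMX1-X1 against the control and 0.65 to 1.11 between the isoforms. It moved by more than the replicate SD of 0.30 (log2) only without EMX1-X1 1. The count of other members called in EMX1-FL against the control, 1, fell to 0 with limma on log2(TPM + 1), which shrinks the fold of a gene as low as AHR, and with the adjusted threshold, was 3 without the fold threshold, and was 1 in every fit with a library left out. In EMX1-X1 against the control the 0 became 1, AHR, with scaling to library size alone, with the cluster as a term and without the fold threshold, and ranged from 0 to 1 with libraries left out. Between the isoforms the 0 became 2 without the fold threshold and ranged from 0 to 1 with libraries left out. AHR (EMX1-FL against the control) and AADAT and CYP1B1 (EMX1-FL against either group) kept their direction in all alternatives. With a library left out they too had to, since the groups compared do not overlap.

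AFMID and CYP1A1 lay near 0 and changed sign. For AFMID in EMX1-FL against the control the value was 0.042 in both limma fits (-0.29 to 0.13 with libraries left out). In EMX1-X1 against the control it was 0.025 with library size alone and 0.107 and 0.111 in the limma fits (-0.11 to 0.16), and between the isoforms 0.066 with the cluster term (-0.28 to 0.12). For CYP1A1 in EMX1-FL against the control it was -0.009 with RLE factors and with DESeq2, -0.003 without the filter, -0.004 in the 6 libraries alone and -0.015 with the cluster term (-0.24 to 0.20). In EMX1-X1 against the control it was -0.039 and between the isoforms 0.024 with the cluster term (-0.092 to 0.17 and -0.32 to 0.12). AADAT in EMX1-X1 against the control was 0.019 with the cluster term (-0.26 to 0.052), and SLC7A8 between the isoforms ranged from -0.016 to 0.49. The causes were not tested. With the filter off, 5 genes of the lists were called in EMX1-FL against the control instead of 3, with limma on log2(TPM + 1) 0, and with at least 10 counts in every library 1, as KYAT1 and MAOA are then not tested. The list genes called went from 0 up to 2 in EMX1-X1 against the control and from 2 down to 0 between the isoforms.

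With the replicate number as a block TDO2 was at 1.83, 0.99 and 0.83 in the 3 comparisons, AHR at 1.39 in EMX1-FL against the control, and the counts of members called were 1, 0 and 0 as without it. Residuals of libraries with the same number correlated at -0.297, 0.170 and -0.278 between the control and EMX1-FL, 0.153, -0.112 and 0.290 between the control and EMX1-X1, and -0.522, -0.286 and -0.248 between the isoforms. The means were -0.135, 0.110 and -0.352 for the same number, and 0.0743, -0.0596 and 0.164 for different numbers. EMX1-FL and EMX1-X1 libraries of the same number lie in opposite clusters, so these values cannot settle whether the numbers pair the libraries. Depth limits IDO1, KYNU, KMO and HAAO, and with 24 to 83 counts a library the values of AHR are less precise than those of TDO2.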
